A study of Mus musculus with 4 samples.

Results

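Lysosomal cathepsins, a set of 10 proteases, were followed across the cell types of mouse lung tumors: Ctsa, Ctsb, Ctsc, Ctsd, Ctsh, Ctsk, Ctsl, Ctss, Ctsw and Ctsz. They were taken by symbol, and all 10 were found among the features measured. Together they held 282281 unique molecular identifiers (UMIs), or 0.482% of the UMIs of all cells. Alveolar macrophages carried more of this RNA than any other cell type, at 11972 UMIs per 1000000 UMIs of the gate (CPM), and Ctsd alone gave 39.6% of it there. Ctsh was highest in the epithelium, Ctsl in plasmacytoid dendritic cells (pDC), Ctsb in non-classical monocytes and Ctsw in NK cells.

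Cathepsins are proteases that are made as inactive precursors and mature in the acidic lumen of endosomes and lysosomes. Most are cysteine proteases, while cathepsin D is an aspartic and cathepsin A a serine protease. In the lung they degrade what macrophages take up, trim the invariant chain and antigens in dendritic cells, activate granule proteases of killer cells, and process surfactant proteins in alveolar type II (ATII) cells. Cystatins and stefins inhibit the cysteine cathepsins.

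The cells were total viable cells sorted from microdissected tumors of 4 female mice, 16 weeks after lentiviral Cre, and were measured by droplet single-cell RNA-seq. All mice carried Lkb1XTR/XTR and a Cre-dependent tdTomato reporter at Rosa26, and all received tamoxifen (4 mg doses) for 2 weeks. The 2 Restored mice also carried FLPo-ERT2, which removes the gene trap from Lkb1 (Stk11) after tamoxifen, and the 2 Non-Restored mice lacked it, so their Lkb1 stayed trapped in recombined cells. Cre from a lentivirus acts in the cells it infects, and FLPo-ERT2 at Rosa26 is not limited to tumor cells. The deposited counts formed 1 matrix of 20351 cells and 58624795 UMIs in which cells carry only a column number. No cell could be tied to a mouse, so Restored and Non-Restored cells were not compared, the Stk11 level could not be checked per mouse, and barcodes shared between libraries could not be counted. The pooled matrix is 1 sample without replicates: no p-value is given, and each interval is an exact 95% interval that covers counting error only. Differences between cell types can also reflect unequal shares of the 4 mice in them, which cannot be told apart here.

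Of 19488 cells kept (median 1949.5 UMIs), 15290 fell into 1 of 18 gates, each set by 5 marker genes of which a cell had to show at least 2 and more than of any other gate; the names below are names of gates. In each gate all 5 defining markers were detected, and 16 gates held at least 50 cells. Cells of some gates also showed markers of other gates. Of cDC2-gated cells, 44.3% also had at least 2 markers of the C1q macrophage gate, 35.4% of C1q macrophages had at least 2 cDC2 markers, and 53.8% of pDC had at least 2 classical monocyte markers. Whether such markers were RNA of other cells or genes that both types express was not tested. Cells with several alveolar macrophage genes were found in other gates and among 4198 ungated cells, and Ctsd and Ctsk were high in alveolar macrophages. Whether such cells were mixed or expressed these genes themselves was also not tested. Therefore, in an alternative added after the data were seen, cells with at least 4 of 7 alveolar macrophage genes (Chil3, Ear2, Mrc1, Lpl, Fabp1, Car4 and the gate marker Plet1) were moved out of all other gates, and ungated ones were placed with the alveolar macrophages. Its values are called purged below.

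The genes lie apart in the genome except for a pair on chromosome 3. On mm10 (GENCODE vM21), Ctsk spans positions 95499256 to 95509362 of chromosome 3 and Ctss positions 95526786 to 95556403, both on the plus strand, with 17423 bases between them and no coding gene in the gap. Ctsd lies on chromosome 7 (142375911 to 142388038, minus strand) and shares its strand with an overlapping model, Gm49369. Ctsl (chromosome 13, 64359337 to 64370890) and Ctss share their strands with Gm49230 and Hmgb1-ps5, so a part of their reads could be split or lost in counting. RefSeq promoter windows on GRCm38.p6 were matched for 7 of the 10 genes. The 250 bases before the start site are shown for Ctsd and Ctsk, the genes that set alveolar macrophages apart, and for Ctss, the neighbor of Ctsk that did not:
Ctsd, chr7:142387828-142388077, minus strand: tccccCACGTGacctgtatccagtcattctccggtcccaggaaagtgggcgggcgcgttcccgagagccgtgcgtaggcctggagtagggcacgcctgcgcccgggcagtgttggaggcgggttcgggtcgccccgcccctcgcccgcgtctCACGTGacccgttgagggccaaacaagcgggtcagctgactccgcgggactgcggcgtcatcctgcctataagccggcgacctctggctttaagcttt
Ctsk, chr3:95498960-95499209, plus strand: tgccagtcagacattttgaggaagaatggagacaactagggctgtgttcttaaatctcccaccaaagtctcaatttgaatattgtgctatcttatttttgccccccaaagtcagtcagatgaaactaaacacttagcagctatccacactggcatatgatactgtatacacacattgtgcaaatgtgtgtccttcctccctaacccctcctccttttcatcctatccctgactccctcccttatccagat
Ctss, chr3:95526536-95526785, plus strand: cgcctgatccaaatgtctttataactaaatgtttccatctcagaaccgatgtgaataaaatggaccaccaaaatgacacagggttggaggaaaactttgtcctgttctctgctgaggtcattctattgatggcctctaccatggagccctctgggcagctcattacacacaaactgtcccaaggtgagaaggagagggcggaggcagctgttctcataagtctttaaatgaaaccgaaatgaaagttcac
Capitals mark the E-box core CACGTG, the center of the site bound by the lysosomal regulators of the MiT/TFE family. It was searched on both strands of 300-base windows that reach 50 bases past the start. The Ctsd window held 2 copies, beginning 245 and 98 bases before the start site, and windows of Ctsa and Ctsl held it too, while those of Ctsk and Ctss did not. Of all 27025 genes with a window, 8.09% had this core. The longer CLEAR element, which contains the core, was searched as an exact sequence in which no base could differ. This exact sequence was in none of the 7 genes' windows and in those of 0.370% of all genes. Near matches were not counted, so this does not show that the element is absent from the 7 genes. The PU.1 core GAGGAAGT was found in the windows of Ctsc and Ctss, and in 3.69% of all genes; in Ctss it began 2 bases before the start site and ran past the stretch shown. These matches describe letters only.

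**Figure D1:**
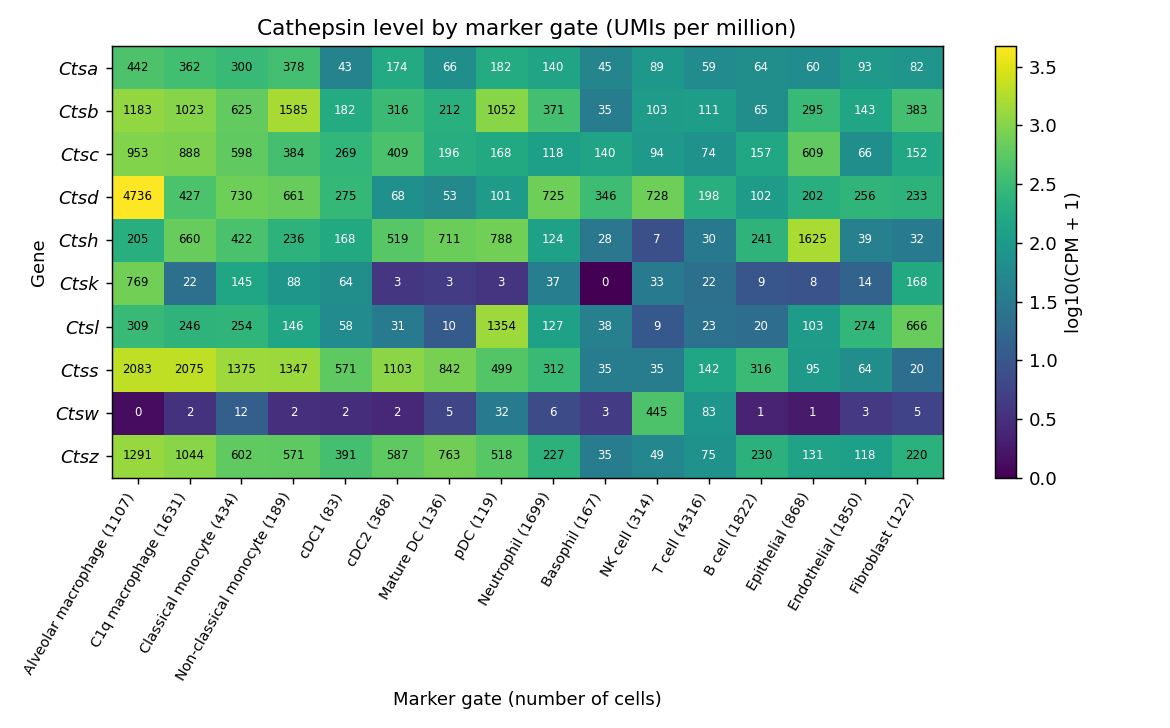
Level of each cathepsin (rows) in the 16 marker gates with at least 50 cells (columns, number of cells in brackets), in CPM, on a log10 color scale with the CPM printed in each field. Ctsd in alveolar macrophages is the highest value, at 4736 CPM, and Ctsk, Ctsl and Ctsw are each high in few gates.

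Macrophages held most of the cathepsin RNA of gated cells. The alveolar and C1q macrophage gates together made up 17.9% of gated cells and 32.0% of their UMIs, but 69.5% of their cathepsin UMIs. Of the cathepsin UMIs of all cells kept, they held 48.9% and the ungated cells 29.6%. Of the 10 genes, 6 had their highest level in a macrophage gate, all in the alveolar one, against 10.5% of 9993 genes that reached 20 CPM in any gate. The summed level was 11972 CPM in alveolar macrophages, 6748 CPM in C1q macrophages, 5397 CPM in non-classical and 5063 CPM in classical monocytes. It was 4696 CPM in pDC, 3213 CPM in cDC2, 3128 CPM in epithelial cells and 2861 CPM in mature DC, and lowest among the 16 gates in T cells (816 CPM) and basophils (707 CPM). Among single alveolar macrophages the 10th and 90th percentiles were 7316 and 17182 CPM.

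**Figure D2:**
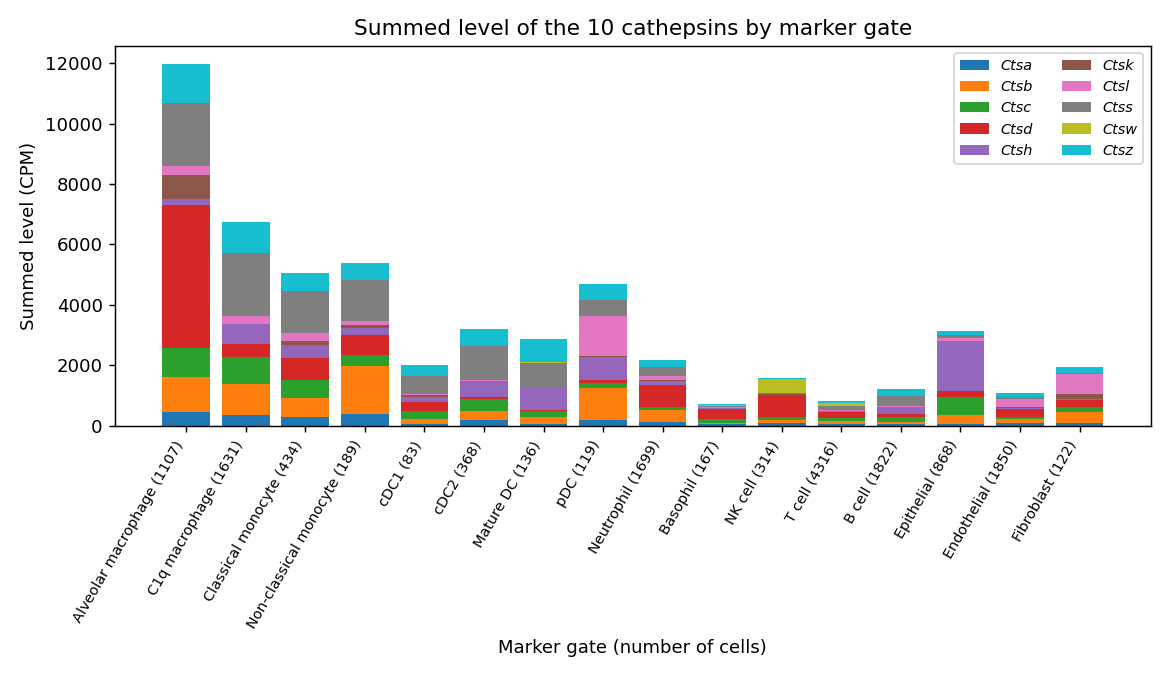
Summed CPM of the 10 cathepsins in the 16 gates (number of cells in brackets), with each bar divided by gene. Ctsd fills 39.6% of the bar of alveolar macrophages, Ctss 30.7% of that of C1q macrophages, Ctsh 52.0% of that of epithelial cells and Ctsl 28.8% of that of pDC.

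The first question was how resident alveolar macrophages (1107 cells) and C1q macrophages (1631 cells) differed in their proteases. Ctsd, the main lysosomal aspartic protease, was at 4736 CPM (4682 to 4791) in alveolar and 427 CPM (411 to 442) in C1q macrophages. This is a log2 ratio of 3.47 (3.42 to 3.53). Ctsk, a collagen-degrading protease best known from osteoclasts, was at 769 CPM (747 to 791) against 21.6 CPM (18.3 to 25.4), a log2 ratio of 5.15 (4.92 to 5.40). Ctsh, an aminopeptidase, went the other way, at 205 CPM (194 to 217) against 660 CPM (641 to 680), a log2 ratio of -1.68 (-1.78 to -1.59). Thus 3 of the 9 members that reached 20 CPM in either gate were at least 2-fold apart, against 24.6% of 6037 genes. The other 6 were within 1.26-fold, and the direction of Ctsb, Ctsc, Ctsl and Ctss was not stable. With a lead of 2 markers, Ctsb (-0.29), Ctsl (-0.21) and Ctsc (-0.10) were lower in alveolar macrophages, and with mixed cells left out Ctsb (-0.19) and Ctsl (-0.13) were. In the same order of settings, Ctsz stayed higher (0.19 and 0.15). Ctsa did too (0.07 and 0.09), with intervals that include 0. Ctss, which trims the invariant chain, was at 2083 CPM and 2075 CPM (log2 ratio 0.01, -0.03 to 0.04, and -0.25 with a lead of 2 markers), and its neighbor on chromosome 3 was the member that differed most.

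The Ctsd and Ctsk differences were wider in the purged gates, where cells left the C1q gate and ungated cells joined the alveolar one. Purged, Ctsk was at 3.34 CPM in C1q macrophages with a log2 ratio of 7.87, and the Ctsd ratio was 3.55. With mixed cells left out both were narrower, at 4.48 for Ctsk and 2.92 for Ctsd. At a depth equalized by drawing 1000 UMIs from each cell (thinning), 43.3% of alveolar macrophages had a Ctsk UMI (84.5% unthinned, median depth 5611 UMIs), against 0.560% of C1q macrophages (1.84% unthinned, 4025 UMIs) and 0.321% of B cells (0.549% unthinned, 1394 UMIs), which should lack it. The C1q share was thus close to this background.

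**Figure D3:**
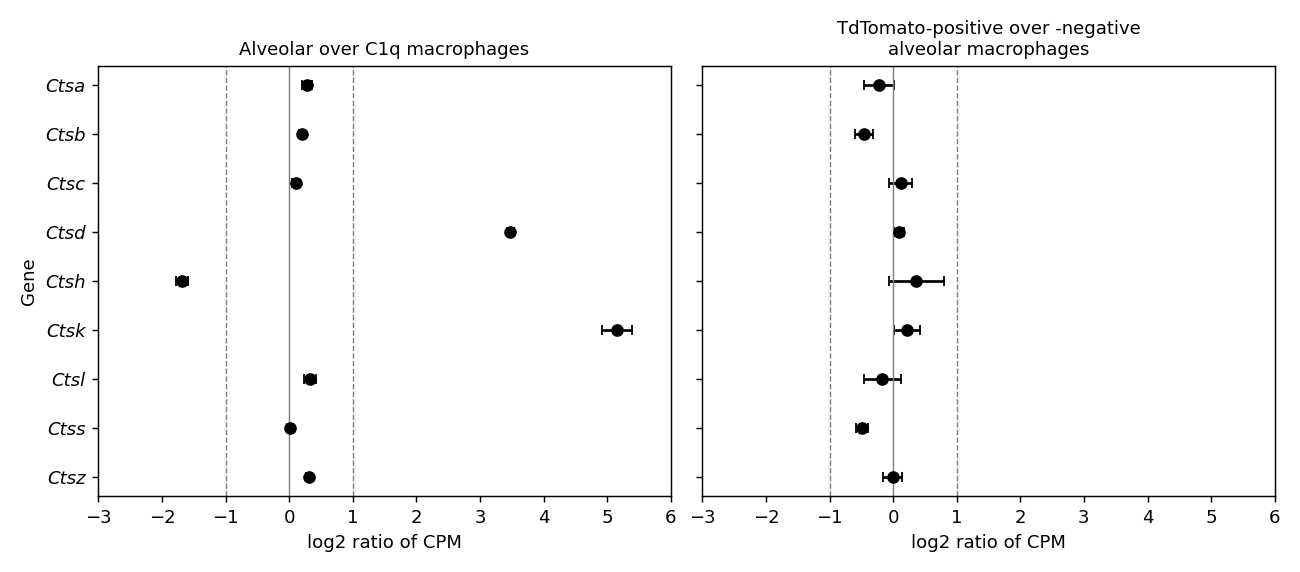
Log2 ratio of CPM for the 9 cathepsins above 20 CPM, alveolar over C1q macrophages (left) and TdTomato-positive over TdTomato-negative alveolar macrophages (right). Bars are exact 95% counting intervals, and dashed lines mark 2-fold. Ctsd, Ctsk and Ctsh lie outside the lines on the left, and no gene does on the right.

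Other lysosomal genes were set beside the members in the same pair of gates, where 15.7% of all genes were at least 2-fold higher and 8.85% lower in alveolar macrophages. Of 20 acid hydrolases measured, 8 were at least 2-fold higher and 2 lower in alveolar macrophages, with a median log2 ratio of 0.78 against 0.27 over all genes. Ppt1, a thioesterase (664 against 113 CPM), and Lipa, the lysosomal acid lipase (418 against 80.0 CPM), were higher. Of 16 genes of the lysosomal membrane and proton pump, 7 were higher and 0 lower, with a median of 0.95. The pump subunit Atp6v0d2 had 865 against 13.9 CPM and Lamp1 1133 against 511 CPM. In the MiT/TFE family, which drives lysosomal genes, Tfec (124 against 11.6 CPM) and Mitf (63.1 against 16.7 CPM) were higher, while Tfe3 and Tfeb stayed within 2-fold. Cathepsins outside the 10 and cystatins had medians below 0, at -0.54 over 4 and -1.29 over 2 genes. Cst3, the secreted inhibitor cystatin C, was at 959 CPM in alveolar and 9461 CPM in C1q macrophages. Cd74, the invariant chain, was at 736 against 27198 CPM.

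Alveolar macrophages carried TdTomato RNA at 2788 CPM, below the 5405 CPM of epithelial cells, whereas C1q macrophages had 154 CPM. Cells with at least 3 TdTomato UMIs (1002) were therefore set beside those with 0 (58 cells; a count of 0 does not show that the reporter is absent). None of the 9 members measured was 2-fold apart, against 6.83% of 5872 genes. Ctsd was at 4728 and 4438 CPM and Ctsk at 772 and 666 CPM. Ctss and Ctsb were lower in positive cells, at 2019 against 2836 CPM (log2 ratio -0.49, -0.59 to -0.39) and 1157 against 1589 CPM (-0.46, -0.59 to -0.32). With purged gates (1679 and 121 cells) the ratios were -0.31 and -0.14. Cd74 also was lower in positive cells (637 against 1992 CPM), while the summed C1q macrophage markers were at 39.9 and 52.8 CPM. The part of these genes in the Ctss difference was not tested.

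Monocytes expressed most of the macrophage proteases. Ctss stood at 1375 CPM in classical and 1347 CPM in non-classical monocytes, which did not differ beyond counting error. Ctsb, a cysteine protease with both endopeptidase and carboxypeptidase activity, had its highest level of all gates in non-classical monocytes, at 1585 CPM (1473 to 1704), over 1183 CPM in alveolar macrophages and 625 CPM in classical monocytes. It was the only member 2-fold apart between the monocyte gates (log2 ratio 1.34, 1.20 to 1.48), where 15.8% of 5795 genes were. Purged, the ratio was 1.59. The count of 1 was 2 to 4 in 5 of 9 alternatives, for example with a lead of 2 markers, where Ctsl (-1.71) and Ctsh (-1.16) were also 2-fold lower in non-classical monocytes. Between C1q macrophages and classical monocytes, 1 member was 2-fold apart, against 17.3% of 5675 genes: Ctsk, at 21.6 and 145 CPM. TdTomato was at 705 CPM in the classical monocyte gate, and its part in this difference was not tested. Purged, Ctsk fell to 6.96 CPM and Ctsd from 730 to 162 CPM there, and the 1 member 2-fold apart was Ctsd, higher in C1q macrophages at 383 CPM (21.3% of 5658 genes were 2-fold apart). However, Ctsd stayed higher in classical monocytes with mixed cells left out, at 802 CPM against 628 CPM in C1q macrophages (log2 ratio -0.35). It also did with the summed marker level (-0.41), thinning (-0.37), means over cells (-0.34) and no upper cut-offs (-0.68). In non-classical monocytes, Ctsd was at 661 CPM and purged at 212 CPM.

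**Figure D4:**
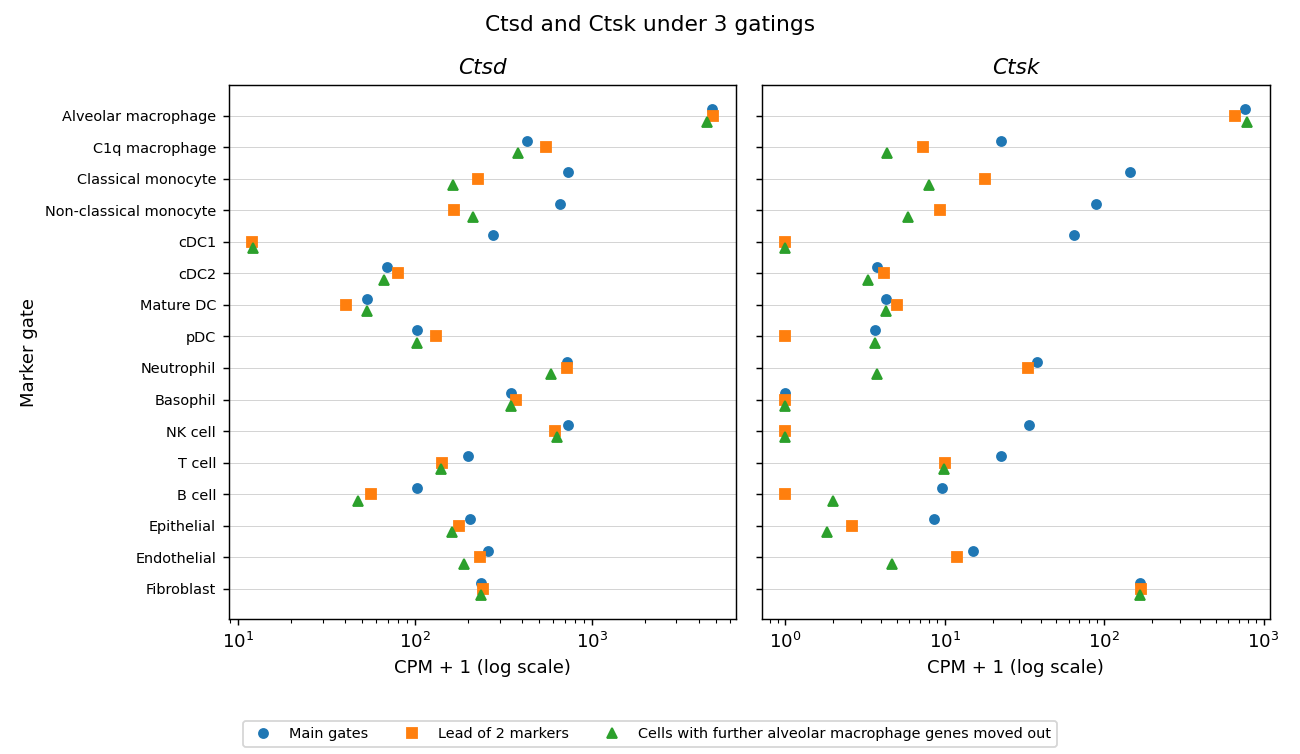
CPM + 1 (log axis) of Ctsd (left) and Ctsk (right) in the 16 gates under the main gating, with a lead of at least 2 markers required, and with cells carrying further alveolar macrophage genes moved out. Both genes fall in the monocyte and cDC1 gates under the stricter gatings, whereas Ctsd in NK cells (728, 619 and 636 CPM) and Ctsk in fibroblasts (168, 169 and 168 CPM) stay near their level.

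Dendritic cells were compared because they process antigen with these enzymes. In cDC2, Ctss led with 1103 CPM, followed by Ctsz (587 CPM), a carboxypeptidase, and Ctsh (519 CPM). In cDC1 (83 cells) Ctss was at 571 CPM (506 to 643) and Ctsz at 391 CPM. Of the 9 members measured, 4 were 2-fold apart, against 17.6% of 5418 genes. Ctsa, a carboxypeptidase that also protects lysosomal galactosidase, and Ctsh were higher in cDC2, with log2 ratios of 2.00 (1.36 to 2.71) and 1.63 (1.30 to 1.98). For Ctsa this became 0.64 with the summed marker level, under 2-fold, and 1.05 (-0.08 to 2.42) after thinning. Ctsd and Ctsk were higher in cDC1 in the main gates (275 against 68.3 CPM and 64.2 against 2.75 CPM). However, purged, which took out 6 of the 83 cells, Ctsd was at 11.2 CPM in cDC1 with a log2 ratio of 2.56 toward cDC2, Ctsk was at 0 UMIs in cDC1, and 6 members were higher and 0 lower in cDC2 (20% of 5404 genes were 2-fold apart). Ctsd stayed higher in cDC1 with the summed marker level (806 CPM, log2 ratio -3.38), thinning (-2.20), means over cells (-2.13) and no upper cut-offs (-1.65). The inhibitor Cst3 reached its highest level in cDC1, at 25275 CPM, against 9642 CPM in cDC2.

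Mature DC, which express Ccr7 and migrate to lymph nodes, were at least 2-fold below cDC2 in Ctsa, Ctsc and Ctsl. Ctsa was at 65.8 against 174 CPM, Ctsc at 196 against 409 CPM and Ctsl at 9.87 against 30.9 CPM. These 3 of 8 members were 2-fold apart, against 30.1% of 5430 genes, and all 3 were lower, against 19.4% of genes, so the members' share was near that of all genes. The Ctsc log2 ratio of -1.06 was under 2-fold with a lead of 2 markers (-0.70), with no upper cut-offs on cells (-0.94) and with mixed cells left out (-0.32), and that of Ctsa was with the summed marker level (-0.94). Ctsz (763 against 587 CPM) and Ctsh (711 against 519 CPM) were higher by less than 2-fold, and Ctss was lower, at 842 against 1103 CPM (log2 ratio -0.39, -0.53 to -0.25). In parallel, 10 of 17 acid hydrolases were lower and 0 higher in mature DC (median log2 ratio -1.12, against -0.18 over all genes), among them Gm2a (100 against 1026 CPM). Both inhibitors measured were higher, Cst3 at 21180 CPM and Cstb at 446 against 165 CPM.

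The pDC gate (119 cells) had a profile of its own. Ctsl, an endopeptidase that trims the invariant chain in thymic epithelium, reached 1354 CPM (1238 to 1477), over 666 CPM in fibroblasts, the next gate, with a ratio of 2.03 (1.76 to 2.35). Ctsb was at 1052 CPM and Ctsh at 788 CPM, while Ctsc (168 CPM) and Ctsd (101 CPM) were low. After thinning, 70.6% of pDC had a Ctsl UMI, against 1.73% of B cells (94.1% and 2.74% unthinned, median depths 2799 and 1394 UMIs). The purged values of Ctsl and Ctsb in pDC were the same, as 0 of the 119 cells was moved, so they do not test this profile. With mixed cells left out, 45 pDC remained, fewer than the 50 asked of a gate.

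Lymphocytes were low in most members. Ctsw, whose expression is known from NK and cytotoxic T cells, was at 445 CPM (384 to 513) in NK cells, 83.4 CPM in T cells and 1.32 CPM, from 4 UMIs, in B cells. Thinned, 36.4% of NK cells (43.3% unthinned, median depth 1192.5 UMIs) had a Ctsw UMI, and 0.0642% of B cells (0.165% unthinned, 1394 UMIs). Ctsd was the other abundant member of NK cells, at 728 CPM against 102 CPM in B cells (log2 ratio 2.83, 2.60 to 3.07). It stayed there in the purged gates (636 against 46.5 CPM), where Ctsk in NK cells went from 32.8 CPM to 0 UMIs. B cells instead had more Ctss (316 against 35.1 CPM), Ctsh (241 against 7.02 CPM) and Ctsz (230 against 49.1 CPM). In all, 3 members were at least 2-fold higher in NK cells (Ctsd, Ctsk and Ctsw) and 3 lower, against 18% and 10.1% of 5797 genes and 28.1% in either direction. Purged, 5 members were left without Ctsk, against 28.9% of genes. Cst7, an inhibitor of cathepsin C and related proteases in killer cells, was at 140 CPM in NK cells and 1.32 CPM in B cells, and Gzma, a granzyme that Ctsc activates, at 8853 against 16.5 CPM. Ctsc itself was at 93.6 CPM in NK cells and 157 CPM in B cells.

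Within CD8 T cells, Ctsw was higher in the effector gate, which had at least 2 of Ccl5, Nkg7, Gzmk and Gzmb (76 cells), than in the naive-like gate (231 cells), at 347 CPM (268 to 442) against 84.8 CPM (60.6 to 115). The log2 ratio was 2.03 (1.44 to 2.64) and purged 2.08. Ctsd was at 544 against 227 CPM and purged at 241 against 101 CPM, but its log2 ratio of 1.26 was -0.28 with gates set by the summed marker level and 0.70 with mixed cells left out. Ctsa and Ctss were lower in effector cells, with 8 and 15 UMIs there. The Ctss log2 ratio of -1.33 was under 2-fold with mixed cells left out (-0.79), thinning (-0.61) and means over cells (-0.73), and that of Ctsa with no upper cut-offs (-0.87). Thus 4 of 10 members were 2-fold apart, against 25.9% of 5450 genes.

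In epithelial cells (868), Ctsh made up 52.0% of the cathepsin UMIs, at 1625 CPM (1584 to 1667), above pDC with a ratio of 2.06 (1.84 to 2.33). Ctsc, also called dipeptidyl peptidase I, followed at 609 CPM. Ctsh is among the proteases that process surfactant protein B in ATII cells, and so is the aspartic protease Napsa, which was at 1604 CPM in the epithelium. Cells were divided into ATII-type (598) and ATI-type (142) by markers. Ctsh was high in both, at 1607 CPM (1560 to 1654) in ATII-type and 2308 CPM (2160 to 2463) in ATI-type cells. Napsa and the surfactant gene Sftpb were lower in ATI-type cells (828 against 1860 CPM and 2846 against 9166 CPM). Ctsc separated the states, at 704 CPM in ATII-type and 239 CPM in ATI-type cells (log2 ratio 1.56, 1.26 to 1.88). Ctss was at 29.3 against 76.2 CPM, and purged at 12.3 against 33.6 CPM, and its log2 ratio of -1.38 was -0.51 after thinning and -0.90 with means over cells, within 2-fold. These 2 of 8 members were 2-fold apart, against 23.2% of 6100 genes. Npc2, a lysosomal sterol carrier, was the most abundant gene of the lysosomal membrane list in ATII-type cells, at 5777 against 1820 CPM.

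Ctsl was the highest member in both stromal gates, where in endothelial cells its interval overlapped that of Ctsd, and Ctsd was in both granulocyte gates. In fibroblasts (122 cells) Ctsl (666 CPM) and Ctsb (383 CPM) led, and Ctsk was at 168 CPM (132 to 210), the second highest gate for this gene, though not apart from classical monocytes beyond counting error. Thinned, 15.5% of fibroblasts had a Ctsk UMI (34.4% unthinned, median depth 3556.5 UMIs), above the B cell share given above. Endothelial cells had Ctsl at 274 CPM and Ctsd at 256 CPM. In neutrophils, a shallow gate with a median of 915 UMIs, Ctsd was at 725 CPM (690 to 761) and purged at 582 CPM, and 43.5% of cells deep enough had a Ctsd UMI after thinning (47.1% unthinned), against 4.49% of B cells (6.53% unthinned). Basophils had Ctsd at 346 CPM and 0 UMIs of Ctsk, which allows up to 10.5 CPM. The cathepsins Ctse and Ctsg, outside the 10, were highest in basophils, at 322 and 213 CPM.

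The 16 gates were ordered by level, and the steps between neighbors were set against counting error. The order comes from the same levels, and intervals are wider for genes with fewer UMIs, so the counts of steps do not rank the genes. For Ctsb and Ctss, 9 of 15 steps between neighboring gates had an interval that excluded a ratio of 1, for Ctsz 7, for Ctsh and Ctsl 6, for Ctsa, Ctsc, Ctsd and Ctsk 5 and for Ctsw 3. At the top of the order, the alveolar macrophage level exceeded the second gate 1.24-fold for Ctsz (1.20 to 1.28), 1.17-fold for Ctsa (1.00 to 1.37) and 1.07-fold for Ctsc (1.04 to 1.11). Ctss was the member whose top gates, alveolar and C1q macrophages, did not differ beyond counting error.

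The members also varied together to different degrees. Over the 16 gates, Pearson's r of log2(CPM + 10) was 0.89 between Ctss and Ctsz, 0.86 between Ctsa and Ctsb and 0.79 between Ctsd and Ctsk. It was -0.27 between Ctsd and Ctsh and -0.50 between Ctsh and Ctsw. The gates share the same mice and sequencing, so these values are descriptions. All r values, here and below, come from the main gates. Ctsd and Ctsk were lower in the monocyte and cDC1 gates when purged, and r was not computed for the purged gates. Among 6205 genes that reached 50 CPM in any gate, the genes most like Ctsd were Gpnmb (0.87), Cd200r4 (0.86) and Sgk1 (0.85), and those most like Ctsk were Adcy3 (0.95), Slc7a2 (0.94) and Angptl4 (0.92). Ctss went most closely with Rassf4 (0.96), Ucp2 (0.92) and Slc35f6 (0.91), and Ctsz with Myo5a (0.93), Rp2 (0.91) and the acid hydrolase Hexa (0.90). The nearest genes of Ctsw were Fasl, Klrg1 and Xcl1, all highest in NK cells (0.94 each). Ctsh was nearest to Rbm47 (0.85), Pmvk (0.83) and Cd74 (0.80), and Ctsl to Clcn4 (0.88), Spsb2 (0.86) and Slc39a7 (0.85). Ctsa went with Srd5a3 (0.92), Adam17 (0.91) and Clec4a3 (0.87), Ctsb with Tgfbr1 (0.92), the acid ceramidase Asah1 (0.89) and Ddi2 (0.88), and Ctsc with Soat1, Tmem141 and Dpep2 (0.84 each).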

How the data were processed

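Droplet 3′ RNA-seq was done on viable cells of lung tumors from 4 mice. Alignment was to mm10 plus reporter features, and the deposited values are UMI counts, which per the file header come from Cell Ranger 3.0.2, in 1 matrix for all mice. Cells with at least 200 genes and up to the 98th percentile of genes and of mitochondrial share (13.4%) were kept. The authors removed tdTomato-positive non-epithelial cells, and here they were kept. UMIs were summed per gate and scaled to CPM, with exact Poisson, Clopper-Pearson or conditional 95% intervals (Python 3.11.15, scipy 1.17.1). Genes reaching 20 CPM in either gate were called 2-fold apart from a ratio of 2, with 3 UMIs in place of 0. No doublet caller was run, and stricter gates served instead. Ratios and their intervals were run on simulated Poisson counts. These hold no spread between cells and no mixed cells, so the run cannot speak to either. The alternatives were stricter or score-based gates, other cell filters, thinning, means over cells and the purged gates. All 10 members are named. An allele that all mice share and a gene of the lists are not reported here. Other genes come from pathway lists, and the 3 genes most like each member exclude gate markers. Members and lists were chosen with earlier results of these data known.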

Additional observations from a re-analysis of the deposited data

Results flagged for a closer look

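In the 4198 ungated cells, which enter no comparison of the main gates, the summed level of the 10 members was 5975 CPM. Ctsk was at 327 CPM (317 to 337) there, second only to alveolar macrophages. A minority of these cells carried most of the summed level, since single cells had a median of 1939 CPM and a 90th percentile of 11734 CPM. The summed and the Ctsk level both lie above the limit of 0.245 CPM that 3 UMIs set in these cells. They are listed because the main gates leave these cells out. TdTomato was at 1045 CPM among them and the summed alveolar macrophage markers at 486 CPM, with 2.50% of cells showing at least 2 of these markers. The purged gates placed ungated cells with further alveolar macrophage genes among the alveolar macrophages, and that gate went from 1107 to 1889 cells. How much of the summed and the Ctsk level of the ungated cells came from them was not tested.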

How the results depend on the processing

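No paired analysis was possible because cells carry no mouse or replicate number, and for the same reason no mouse could be left out in turn. The main limits are the single pooled sample, gates of 5 markers in which some cells also show markers of other gates, and small gates. Among the small gates, cDC1 and effector CD8 cells held 83 and 76 cells. Of 90 counts of members under 9 alternatives, 78 stayed within 1.5 times the reported count, and 6 members had their highest level in a macrophage gate under all 9. The added purged gates moved no count by over 1.5 times, but changed which genes it held, as given in the report. Between C1q macrophages and classical monocytes the count of 1, lower in C1q macrophages, also changed direction. It became 2 with at least 3 markers and 3 with a lead of 2 markers, all higher in C1q macrophages. With mixed cells left out it became 2, of which 1 was higher and 1 lower. With thinning and with means over single cells it became 2, all lower. Between the monocyte gates the count of 1 became 2 with at least 3 markers, 3 with a lead of 2 markers, with the summed marker level and with means over single cells, and 4 with thinning. Between cDC2 and cDC1 the count of 4 became 7 with at least 3 markers, and between ATII-type and ATI-type cells the count of 2 became 1 with means over single cells. Of 770 ratios, 6 that were at least 2-fold in the reported gates changed sign. The Ctsd log2 ratio of cDC2 over cDC1 was -2.01 and became 3.0 with at least 3 markers, 2.85 with a lead of 2 markers and 2.56 when purged. It stayed below 0 with the summed marker level, thinning, means over cells and no upper cut-offs. The Ctsd ratio of effector over naive-like CD8 cells became -0.28 with the summed marker level. The Ctsw ratios of C1q macrophages and of non-classical monocytes over classical monocytes, from 17 UMIs or fewer, became 1.03 and 1.40 with at least 3 markers. Counting instead sign changes in which both intervals leave out 0, there were 14, of which 11 were of ratios under 2-fold. Among these 11, Ctsd in C1q macrophages over classical monocytes went from -0.77 to 1.05 with at least 3 markers. It became 1.29 with a lead of 2 markers and 1.24 when purged, and stayed below 0 in the other settings given in the report. Ctsl in cDC2 over cDC1 went from -0.91 to 1.75, 1.73 and 1.41 in the same order. The rest of the 11 were the Ctsb, Ctsl and Ctsc ratios of alveolar over C1q macrophages given in the report as below 0. The Ctsk call of NK over B cells ended with means over single cells (0.75). The causes were not tested. The ratios of alveolar over C1q macrophages ranged from 2.92 to 3.58 for Ctsd, from 4.48 to 8.07 for Ctsk and from -1.81 to -1.59 for Ctsh.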

Other observations

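The ciliated gate, left out above because it held 18 cells, had a Ctsk UMI in 9 of them, and in 22.2% after thinning to 1000 UMIs. With a lead of 2 markers, 13 cells remained and Ctsk was at 222 CPM, and with mixed cells left out 1 cell remained, so 17 of the 18 also had at least 2 markers of another gate. No placental-type cathepsin (Cts3, Cts6, Cts7, Cts8, Ctsj, Ctsm, Ctsq and Ctsr) had a UMI in any of the 20351 cells.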
